A study of Homo sapiens with 4 samples.

Results

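Tubulin genes were followed in H9 cells, an established line of human embryonic stem cells, by taking the rows of the deposited table named TUBA1A, TUBA1B, TUBA1C, TUBB, TUBB2A, TUBB2B, TUBB4B, TUBB6 and TUBG1. These are 9 of 16174 listed genes. All cells carried a doxycycline-inducible dCas9-BFP-KRAB, a Cas9 without nuclease activity joined to a blue fluorescent protein and a repressor domain (CRISPR interference), delivered by piggyBac transposition. They were puromycin-selected pools, not single clones. One arm had 4 pooled guides against the long non-coding RNA gene SNHG26, the other had non-targeting control guides, and cells were collected on day 2 or day 3 of doxycycline. Full-length cDNA made from poly(A) RNA was read by nanopore sequencing. There was 1 library per arm and day, so the 2 libraries of an arm differ in day. The labels do not say that they came from separate cultures, and the p-values measure only the spread between these libraries, which may be technical. Each mean ± SD below is over the 2 libraries of an arm.

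Microtubules are hollow polymers of dimers of alpha- and beta-tubulin, which bind GTP and add to filament ends. Gamma-tubulin, encoded by TUBG1, nucleates new microtubules at centrosomes and spindles as part of a ring complex. The genome holds several alpha and beta genes whose proteins differ mainly in an acidic tail at the carboxy end, where many tubulin modifications are placed. Cells also adjust tubulin mRNA to the amount of free dimer: TTC5 binds the first residues of alpha- and beta-tubulin chains as they leave the ribosome, and the mRNA is then degraded through the adaptor SCAPER and the CCR4-NOT deadenylase.

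The start of each coding sequence is shown because it encodes the residues read in this autoregulation. Each line gives the first 12 coding bases in GENCODE release 29 (GRCh38), 5′ to 3′, with codons 2 to 4 in capitals.
TUBA1A: atgCGTGAGTGC
TUBA1B: atgCGTGAGTGC
TUBA1C: atgCGTGAGTGC
TUBB: atgAGGGAAATC
TUBB2A: atgCGCGAGATC
TUBB2B: atgCGTGAGATC
TUBB4B: atgAGGGAAATC
TUBB6: atgAGGGAGATC
TUBG1: atgCCGAGGGAA
The 3 alpha genes had the same 12 bases, as did TUBB and TUBB4B. The 5 beta genes shared the last codon shown and, apart from TUBB and TUBB4B, differed in codon choice before it. TUBG1 began with other codons.

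The last 75 coding bases of the beta genes encode the carboxy-terminal tail and end with the stop codon. They are shown because the tail is where the encoded proteins differ most. Capitals mark bases that differ from TUBB, or have no partner in it, in an alignment of the whole coding sequences. Bases of TUBB that another gene lacks cannot be marked and are not in the counts of differing bases from TUBB given below. Each stretch lies within 1 coding exon (GENCODE release 29, GRCh38).
TUBB (chr6:30724323-30724397, plus strand): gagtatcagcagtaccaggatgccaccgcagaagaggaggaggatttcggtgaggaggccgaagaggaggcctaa
TUBB2A (chr6:3153863-3153937, minus strand): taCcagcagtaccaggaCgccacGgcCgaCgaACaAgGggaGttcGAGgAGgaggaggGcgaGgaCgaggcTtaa
TUBB2B (chr6:3224751-3224825, minus strand): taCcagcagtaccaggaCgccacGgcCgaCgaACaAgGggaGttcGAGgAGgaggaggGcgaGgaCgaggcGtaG
TUBB4B (chr9:137243482-137243556, plus strand): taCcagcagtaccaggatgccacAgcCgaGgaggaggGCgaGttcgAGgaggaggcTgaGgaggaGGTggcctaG
TUBB6 (chr18:12326056-12326130, plus strand): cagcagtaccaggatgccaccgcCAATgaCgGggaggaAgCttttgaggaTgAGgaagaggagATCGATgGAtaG
In this stretch TUBB2A differed from TUBB at 19 bases, TUBB2B and TUBB6 at 20 and TUBB4B at 15, while TUBB2A and TUBB2B differed from each other at 2. Over the whole coding sequence, TUBB2A and TUBB2B were 98.1% identical, with 25 of 1338 aligned positions differing. TUBA1A and TUBA1B were 97.2% identical (38 of 1356 differing), while TUBB and TUBB6 were 80.8% identical. For the annotated 3′ untranslated regions the figure was 37.0% for TUBA1A and TUBA1B (214 and 176 bases). It was 30.2% for TUBB2A and TUBB2B (194 and 490 bases). Gaps from unequal lengths lower these figures, and TUBA1A with TUBB2A gave 47.6%. They therefore do not show how well these regions tell the genes apart. How reads matching several genes were assigned is not given in the sources used here, so the values of TUBA1A, TUBA1B, TUBA1C, TUBB2A and TUBB2B are uncertain to that extent.

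The values are TPM, reads per length of gene, set to the same total in every library. Where reads came out as whole numbers, as for TUBB4B, the length was the genomic span with introns. For the other 8 members the length used is not known, and levels are compared between genes only as the deposited TPM. The libraries had 10603 to 11162 genes above 0, and a single read contributed 0.653 to 0.803 TPM to a gene spanning 10 kb. The mitochondrial share of TPM was 25.7% on day 2 and 25.9% on day 3 with control guides, and 23.2% and 18.5% with SNHG26 guides. The day 3 library with SNHG26 guides thus stands apart, and its other genes share a larger remainder. SNHG26 was at 0 and 0.933 TPM with its own guides and at 2.98 and 4.03 TPM with control guides, a log2 difference of -1.69 (SE 0.58, limma adjusted p = 0.935). Of 12 pluripotency markers 11 were listed, from the factor POU5F1, at 1050 to 1212 TPM, down to LIN28B, with a mean of 0.928 TPM. DPPA4 was at 210.2 and 182.5 TPM with SNHG26 guides and at 314.7 and 266.1 TPM with control guides. Its log2 difference was -0.56 (SE 0.19, limma adjusted p = 0.935). Of the 10 tested, 6 had a mean guide difference above 0, against 53.3% of all genes. Both SNHG26-guide libraries lay below both controls for 2 (DPPA4 and L1TD1), where 13.2% of all genes did. They lay above for 2 (ZFP42 and SALL4), where 16.1% did. Of 7 fibroblast markers 4 were listed, with a sum of 66.3 to 66.5 TPM with SNHG26 guides and 65.1 to 96.3 TPM with control guides. Most of that sum was 1 gene, THY1, at 54.4 to 84.4 TPM. COL1A2 was at 3.79 to 7.72 TPM, COL1A1 at 2.98 to 4.21 TPM and POSTN at or below 0.181 TPM. The sum therefore does not measure fibroblast content. Of 8 mesendoderm markers 4 were listed, and none was above 0 in more than 1 library. CER1 was at 5.34 TPM in the day 2 control library only and MIXL1 at 1.98 TPM in the day 3 control library only. FOXA2 and EOMES were at 0 in all libraries. The list therefore does not show a difference between the arms. Of 11 neural markers, 6 were listed, and the neuronal genes DCX, STMN2 and MAP2 stayed at or below 0.475 TPM, with ELAVL3 listed at 0. The other 2 were NES, at 17.1 to 24.5 TPM, and SOX3, at 6.27 to 19.3 TPM, both also known from stem cells, and they made up nearly all of the list's sum. The summed level of the neural list was 28.0 to 42.3 TPM with SNHG26 guides and 33.6 to 42.9 TPM with control guides. Fewer cells of a type and less RNA per cell cannot be told apart in such bulk libraries.

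Most of the summed tubulin TPM lay in TUBA1B and in the 3 beta genes TUBB, TUBB4B and TUBB2B. These shares depend on the length by which reads were divided. The 9 genes summed to 5066 TPM with SNHG26 guides on day 2 and 6002 TPM on day 3, and to 4894 and 4887 TPM with control guides. TUBA1B ranked 58 by mean TPM among the 8274 genes tested. It held 94.2% to 95.8% of the TPM summed over 7 listed alpha genes. Among 8 listed beta genes, TUBB held 39.8% to 45.3%, TUBB4B 21.0% to 28.2%, TUBB2B 17.9% to 21.9% and TUBB2A 6.99% to 10.6% of the summed TPM. TUBB3, a beta gene used as a neuronal marker, held 2.07% to 2.75%. The summed alpha level was 1.39 to 1.56 times the summed beta level.

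**Figure D1:**
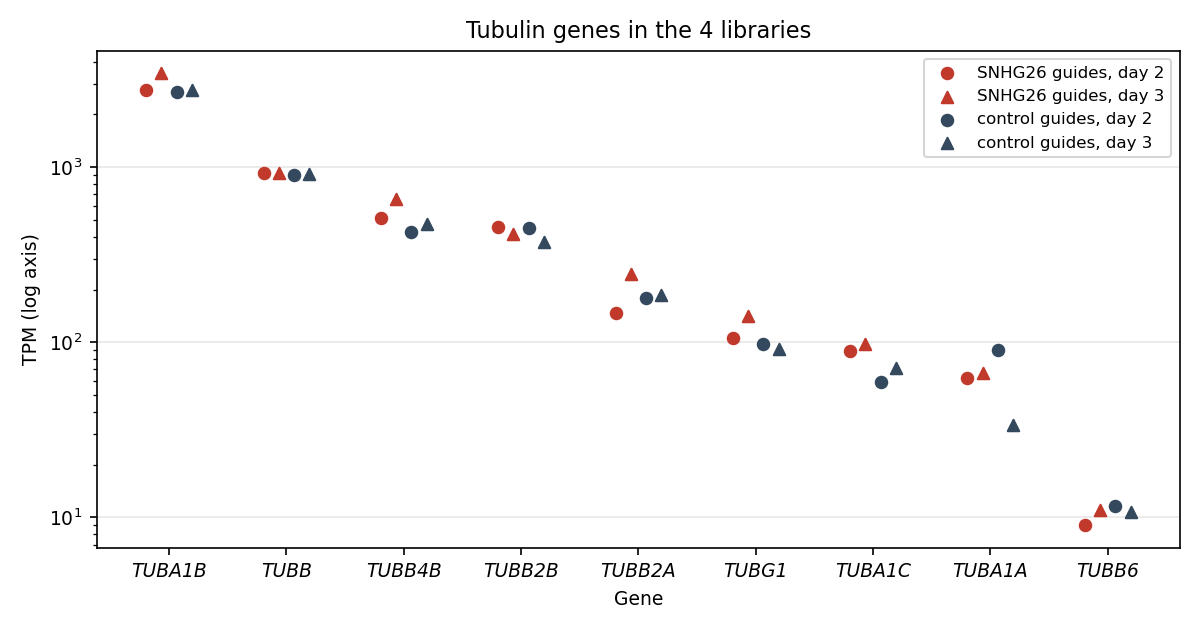
Level in TPM (log axis) of the 9 tubulin genes in each of the 4 libraries, with arms and days marked. TUBA1B lies between 2677 and 3434 TPM, the TUBB points nearly coincide at 905.5 to 927.8 TPM, and TUBA1A is the most scattered, from 33.6 to 90.2 TPM.

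The order of the levels was the same in 3 of the 4 libraries: TUBA1B, TUBB, TUBB4B, TUBB2B, TUBB2A, TUBG1, TUBA1C, TUBA1A and TUBB6. In the day 2 control library, TUBB4B and TUBB2B changed places, as did TUBA1C and TUBA1A. The ranges over the 4 libraries overlapped for TUBB4B and TUBB2B, for TUBG1 and TUBA1C, and for TUBA1C and TUBA1A, so their ranges do not separate these neighbours, although TUBG1 was above TUBA1C within each of the 4 libraries. The ranges of TUBA1B, TUBB, TUBB2A and TUBB6 met no other member's. Reads were also estimated from the span of the main GENCODE transcript and divided by its spliced length. TUBA1B and TUBB were then again the 2 highest in every library, and TUBB6 fell last in 3 of 4. The order was not worked out for the full gene span. At that length TUBA1C would have 630.2 to 1287 reads, TUBB 913.5 to 1151 and TUBA1B 1205 to 1901, so the place of TUBA1C depends on the length used.

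Among the alpha genes, TUBA1B lies on chromosome 12 from 49127782 to 49131397 on the minus strand (GRCh38) and encodes a main alpha-tubulin of dividing cells. It was at 2757 TPM on day 2 and 3434 TPM on day 3 with SNHG26 guides, and at 2677 and 2742 TPM with control guides. The SNHG26-guide library of day 3 was the high one, and both SNHG26-guide libraries lay above both controls, an order that was lost under the 3 other scalings tried. The arm means were 3096 ± 478 and 2709 ± 46.2 TPM (SD, n = 2), a log2 difference of 0.18 (SE 0.14, limma adjusted p = 0.935).

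TUBA1C lies on chromosome 12 from 49188736 to 49274600 on the plus strand and is another alpha gene of dividing cells. Its levels were 89.0 and 97.9 TPM with SNHG26 guides on day 2 and day 3, and 59.0 and 71.8 TPM with control guides. The arms did not overlap, and the difference had the same direction on both days (log2 0.59 and 0.44). The means were 93.5 ± 6.29 and 65.4 ± 9.05 TPM (SD, n = 2), a ratio of 1.43, and the log2 difference of 0.51 (SE 0.22) was the largest among the 9 genes. It did not pass the test (limma adjusted p = 0.935). The reads behind it number 630.2 to 1287 per library at most, if the length used was the 85865 bases of the gene, and an estimated 71.2 to 145 if it was the 9697 bases spanned by the main transcript.

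TUBA1A, an alpha gene strongly expressed in developing neurons, lies on chromosome 12 from 49184686 to 49189324 on the minus strand. It was at 62.4 and 66.6 TPM with SNHG26 guides on day 2 and day 3, and at 90.2 and 33.6 TPM with control guides. The control libraries were the highest and the lowest of the 4, so the arms overlapped fully. The guide difference was -0.53 on the log2 scale on day 2 and 0.97 on day 3. Their mean, 0.22 (SE 0.53, limma adjusted p = 0.998), became -0.48 without the day 3 control library. The test of that difference between the days gave an unadjusted limma p of 0.131 and an adjusted p of 0.961. At most 52.1 reads lie behind the day 2 control value and at most 23.2 behind that of day 3. Their 95% Poisson intervals at those read numbers, 67.4 to 118 and 21.4 to 50.3 TPM, did not overlap, and they cover counting error only and widen if the reads were fewer.

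The lncRNA gene TUBA1B-AS1, from 49127782 to 49188484 on the plus strand, covers all 3616 bases of TUBA1B and 3799 bases of TUBA1A in the opposite direction. It was at 79.0 and 94.5 TPM with SNHG26 guides and at 72.5 and 169.7 TPM with control guides on day 2 and day 3. Its highest value was in the day 3 control library, where TUBA1A had its lowest. No source used here says if counting was stranded. Reads of TUBA1A, TUBA1B and this antisense gene therefore cannot be told apart with certainty, and its part in the TUBA1A values was not tested.

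**Figure D2:**
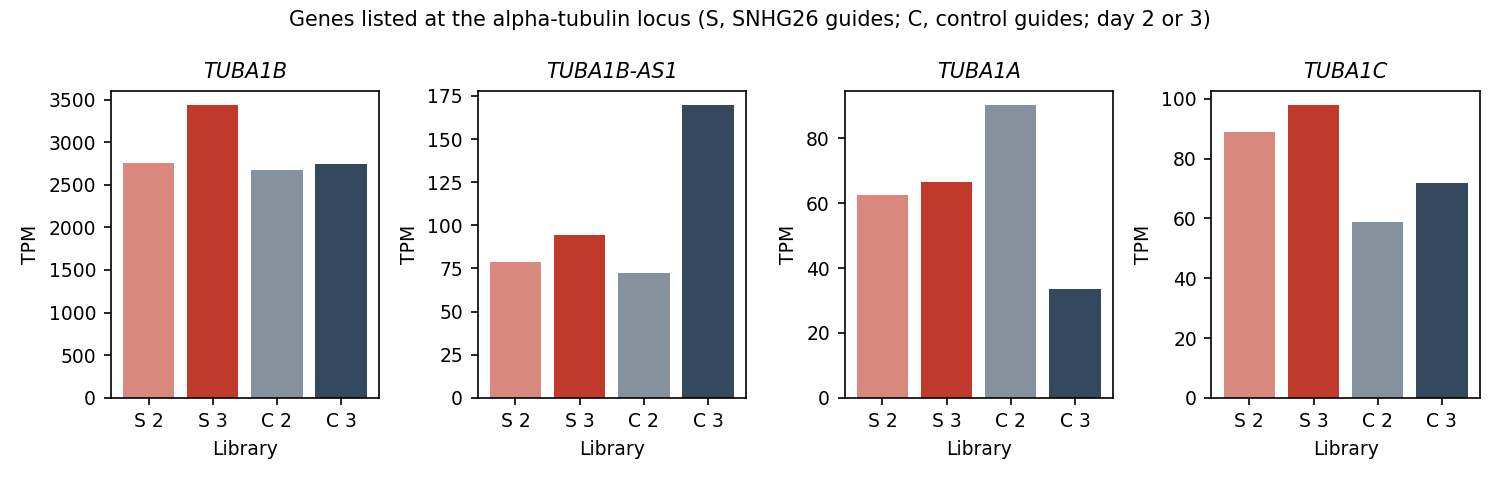
Bars from 0 show levels in TPM of the alpha genes on chromosome 12 and of TUBA1B-AS1, which overlaps TUBA1A and TUBA1B, in each of the 4 libraries. In the day 3 control library TUBA1A is at 33.6 TPM and TUBA1B-AS1 at 169.7 TPM.

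Among the beta genes, TUBB is the main beta gene of most dividing cells and lies on chromosome 6 from 30717435 to 30725538 on the plus strand. It was the steadiest member, at 922.0 and 927.8 TPM with SNHG26 guides and 905.5 and 909.0 TPM with control guides on day 2 and day 3. The highest library exceeded the lowest by a ratio of 1.02. Both SNHG26-guide libraries lay above both controls, but the log2 difference was 0.03 (SE 0.11, limma adjusted p = 0.998). It turned to -0.06 under quantile normalization, to -0.01 with median ratio scaling and to -0.06 with a common sum without mitochondrial genes.

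TUBB4B, a beta gene of both dividing and ciliated cells, lies on chromosome 9 from 137241287 to 137243707 on the plus strand and overlaps no other listed gene. Its values came out as whole reads, 171 and 244 with SNHG26 guides on day 2 and day 3, and 129 and 170 with control guides. In TPM these were 514.9, 658.3, 428.0 and 471.6, and the arms did not overlap. The arm means were 586.6 ± 101 and 449.8 ± 30.8 TPM (SD, n = 2), a ratio of 1.3, and the log2 difference was 0.37 (SE 0.18, limma adjusted p = 0.935). The 95% Poisson intervals of the day 3 libraries, 578 to 746 and 403 to 548 TPM, did not overlap, while those of day 2, 441 to 598 and 357 to 509 TPM, did.

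TUBB2A and TUBB2B are close neighbours on chromosome 6 with expression in the nervous system among other tissues. TUBB2B, from 3223324 to 3231730 on the minus strand, was at 457.7 and 417.8 TPM with SNHG26 guides and at 447.2 and 371.6 TPM with control guides on day 2 and day 3. Both day 3 libraries lay below both day 2 libraries, while the arms overlapped. TUBB2A, from 3153497 to 3157544 on the minus strand, was at 147.2 and 246.4 TPM with SNHG26 guides and at 178.1 and 185.3 TPM with control guides. Both its day 3 libraries lay above both day 2 libraries. The guide difference of TUBB2A was -0.27 on the log2 scale on day 2 and 0.41 on day 3 (mean 0.07, SE 0.30, limma adjusted p = 0.998), and that of TUBB2B averaged 0.10 (SE 0.17, adjusted p = 0.991).

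TUBB6, on chromosome 18 from 12307669 to 12344320 on the plus strand, is another beta gene. It was the lowest member, at 9.02 and 11.0 TPM with SNHG26 guides and at 11.6 and 10.8 TPM with control guides. At most 61.5 reads lie behind any of these values. Its arms overlapped, and its mean guide difference was below 0 (log2 -0.16, SE 0.29, limma adjusted p = 0.995).

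TUBG1, the gamma-tubulin gene, lies on chromosome 17 from 42609641 to 42615238 on the plus strand. It was at 106.3 and 142.2 TPM with SNHG26 guides and at 98.3 and 91.9 TPM with control guides on day 2 and day 3. The arms did not overlap, and the day 3 SNHG26-guide library was the high one. The means were 124.2 ± 25.4 and 95.1 ± 4.56 TPM (SD, n = 2), a ratio of 1.31, with a log2 difference of 0.37 (SE 0.24, limma adjusted p = 0.935).

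**Figure D3:**
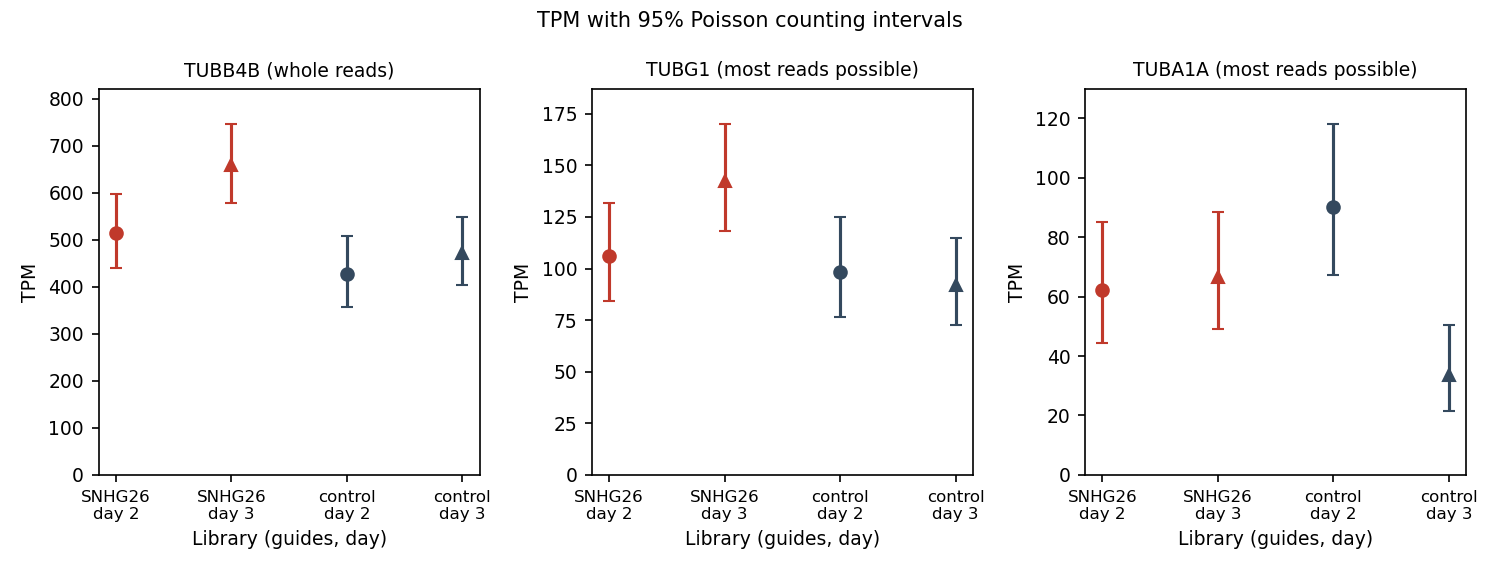
Levels in TPM of TUBB4B, TUBG1 and TUBA1A in each library, with bars for the 95% Poisson counting interval at the known read number (TUBB4B) or at the largest possible one (TUBG1 and TUBA1A). The 2 control libraries of TUBA1A, at 90.2 and 33.6 TPM, do not share an interval.

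None of the 9 genes passed the comparison of SNHG26 guides with control guides, in which 0 of 8274 genes passed at a limma adjusted p under 0.05 (0.0%; 337 genes, 4.07%, had an unadjusted p under 0.05). Members' mean differences were above 0 for 8 of 9, against 53.3% of all genes tested and 69.3% of genes whose mean was 50 TPM or more, a level that 8 members reach. TUBB6 was the exception, joined by TUBB under the 3 other scalings and by TUBB2A with the common sum without mitochondrial genes. The members' median was 0.18 on the log2 scale, against 0.04 over all genes and 0.11 over those at 50 TPM or more. Both SNHG26-guide libraries lay above both controls for 5 members (TUBA1B, TUBA1C, TUBB, TUBB4B and TUBG1), where 16.1% of all genes and 25.5% of genes at 50 TPM or more did. None lay below, where 13.2% and 8.03% did. The difference was above 0 on both days for 6 members, against 24.8% and 41.1%. Quantile normalization, median ratio scaling and a common sum without mitochondrial genes left 3 members above (TUBA1C, TUBB4B and TUBG1), with 15.4%, 14.4% and 12.2% of all genes. The share among genes at 50 TPM or more, which was the higher one before scaling, was not worked out under these scalings. In an exact permutation test, 2 libraries against 2 cannot go below a two-sided p of 0.333.

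The day 3 library with SNHG26 guides held the highest value of 6 of the 9 genes, against 28.1% of all genes and 46.5% of those at 50 TPM or more. This is the library with the lowest mitochondrial share, 18.5%. The day 2 SNHG26-guide library, with 23.2%, also lay above both controls for 6 members, against 32.6% and 38.9%. What the mitochondrial share adds beyond the common sum without those genes was not tested.

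**Figure D4:**
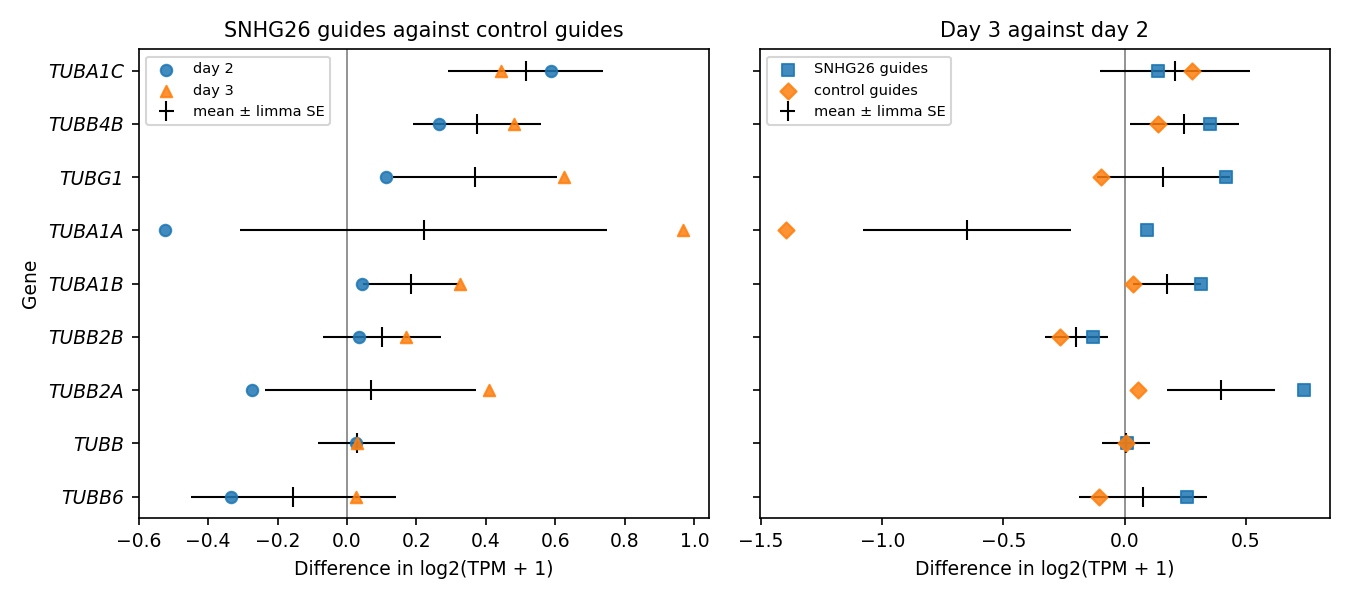
Difference in log2(TPM + 1) for the 9 tubulin genes, SNHG26 guides minus control guides on each day (left) and day 3 minus day 2 in each arm (right), with crosses for the mean and lines for its limma SE. On the left, TUBA1C has the largest mean difference, 0.51 (SE 0.22), and TUBB6 has a mean below 0 (-0.16), as TUBB does under the 3 other scalings and TUBB2A with the common sum without mitochondrial genes.

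None of the 9 genes passed the comparison of day 3 with day 2 either, in which 3 of 8274 genes did (0.0363%; 547 genes, 6.61%, had an unadjusted p under 0.05). Levels were higher on day 3 in both arms for 5 members, against 24.3% of all genes and 31.6% of those at 50 TPM or more, and lower in both arms for 1, against 24.8% and 25.3%. The smallest adjusted p of a member was 0.76 (limma). TUBB2A was 0.40 higher on the log2 scale (SE 0.22) and TUBB2B 0.20 lower (-0.20, SE 0.13). They were the 2 members whose days did not overlap, 1 higher (17.1% of all genes and 22.1% of those at 50 TPM or more) and 1 lower (18.4% and 18.9%). TUBA1A had the widest day difference, -1.40 within the control arm and 0.09 within the SNHG26-guide arm (mean -0.65, SE 0.43, adjusted p = 0.76).

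The guide difference had opposite signs on the 2 days for 3 members (TUBA1A, TUBB2A and TUBB6), against 44.3% of all genes and 43.0% of those at 50 TPM or more. The test of the difference between the days passed for 8 of 8274 genes (0.0967%; 291 genes, 3.52%, had an unadjusted p under 0.05) and for no member, with a smallest adjusted p of 0.961 (limma).

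Other genes of the tubulin pathway were counted in the same fits, and none passed in any of the 3 comparisons. The folding list holds the CCT chaperonin and prefoldin, which fold new chains, and the cofactors that join the dimer. Of its 21 genes 19 were tested, 15 had a mean guide difference above 0, against 53.3% of all genes and 69.3% of those at 50 TPM or more. The median was 0.14 on the log2 scale, against 0.04 and 0.11. The most abundant by TPM were CCT5 (log2 0.14, SE 0.17), CCT2 (0.08, SE 0.23) and ARL2 (0.20, SE 0.22). TBCC, the folding cofactor C, was named after its values were seen. It was at 72.6 and 69.1 TPM with SNHG26 guides and at 25.0 and 37.6 TPM with control guides, and the arms did not overlap (log2 1.18, SE 0.29, limma adjusted p = 0.865). Of the 19 tested folding genes, 3 including TBCC had both SNHG26-guide libraries above both controls, where 16.1% of all genes did. In 1 they lay below, where 13.2% did. TBCC is thus not evidence about the list.

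Of 9 autoregulation genes, 6 were tested and 2 had a difference above 0, against 53.3% of all genes, with a median of -0.49, against 0.04. TTC5, the sensor of new tubulin chains, was named after its values were seen. It was at 2.84 and 3.43 TPM with SNHG26 guides and at 7.76 and 6.09 TPM with control guides (log2 -0.93, SE 0.34, limma adjusted p = 0.935). CNOT1, the scaffold of the deadenylase, was at 3.99 and 4.19 TPM against 10.8 and 8.33 TPM (log2 -1.04, SE 0.32). Of the 6 tested genes, 3 had both SNHG26-guide libraries below both controls, CNOT1, TTC5 and CNOT3 (13.2% of all genes), and 1 had them above, CNOT8 (16.1%). CNOT3 was near the filter of 1 TPM, at 0.407 and 1.09 TPM with SNHG26 guides and 1.79 and 1.96 TPM with control guides. Reads behind the genes of this list were not estimated. The deadenylase subunit CNOT8 was at 13.4 and 16.2 TPM with SNHG26 guides and at 10.9 and 8.21 TPM with control guides (log2 0.59, SE 0.32). CNOT11 had the largest positive difference of the list (log2 0.63, SE 0.47), but its arms overlapped. It was at 7.11 and 3.75 TPM with SNHG26 guides and at 2.30 and 3.85 TPM with control guides. The subunit CNOT7 differed by -0.23 (SE 0.47), and SCAPER had a mean under 1 TPM and was not tested.

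Of 22 genes linked to the gamma-tubulin ring complex, 15 were tested, with a median guide difference of -0.05 on the log2 scale. Its most abundant members by TPM were MZT2A (-0.05, SE 0.25), MZT2B (0.22, SE 0.27) and HAUS1 (0.04, SE 0.26). Of 25 genes of microtubule dynamics 9 were tested, with a median of 0.17, led by TPT1 (-0.03, SE 0.13), STMN1, which binds free dimers (0.17, SE 0.17), and MAPRE1, which tracks growing ends (0.11, SE 0.27). Of 22 modification genes 7 were tested, with a median of 0.01, led by SVBP (0.01, SE 0.26), AGBL5 (-0.48, SE 0.31) and TTLL12 (-0.22, SE 0.52), and 5 were listed at 0 in all libraries. Of 14 other tubulin genes 6 were tested, with a median of -0.09, led by TUBB3 (0.14, SE 0.27), TUBA4A (0.59, SE 0.36) and TUBB4A (-1.01, SE 0.64).

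**Figure D5:**
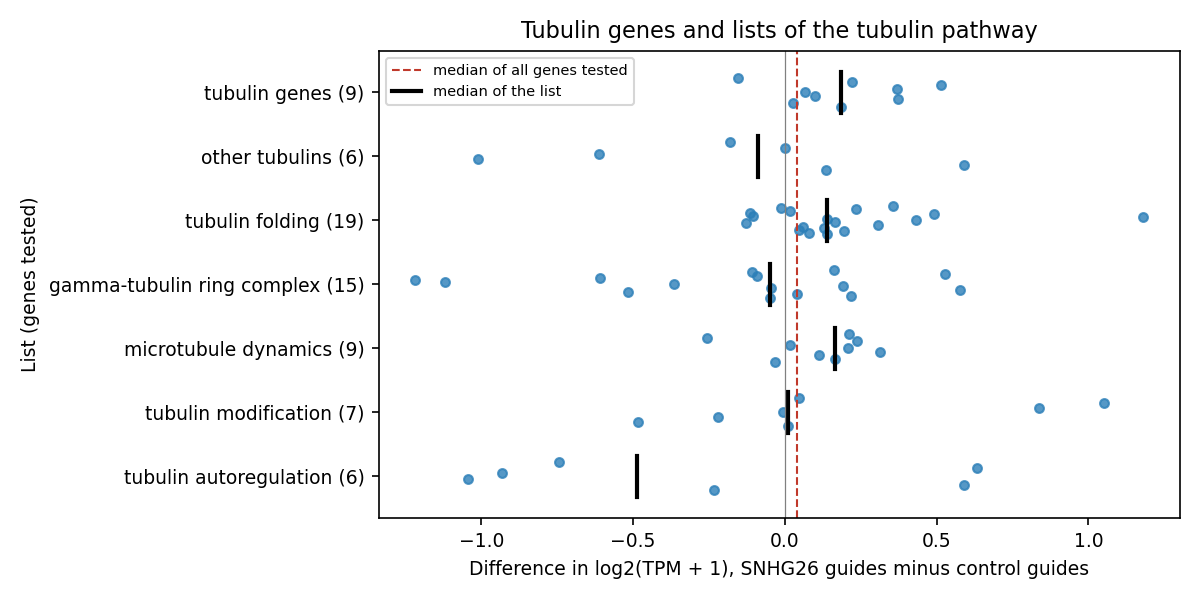
Difference in log2(TPM + 1), SNHG26 guides minus control guides, for the tested genes (points) of each tubulin-pathway list, with list medians as bars and the median of all genes as a dashed line. The median is 0.18 for the 9 tubulin genes, 0.14 for the folding list and -0.49 for the autoregulation list, and no gene of any list passed the test.

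Genes outside the family were ranked by how closely their 4 centred log2(TPM + 1) values followed the members' median profile, among 1137 genes whose mean was 50 TPM or more. The nearest 5 by Euclidean distance were LAMTOR1 (0.048), UBB (0.0495), NDUFB7 (0.0534), MRPS7 (0.0548) and TRMT112 (0.0577), where the median candidate was at 0.395. Of the members, which themselves form that median, TUBA1B was nearest to it (0.0986) and TUBA1A farthest (0.956). TUBB2A (0.394), TUBA1C (0.387) and TUBB6 (0.378) lay about as far from it as the median candidate. The remaining members lay at 0.201 to 0.328, so the profile was not common to all of them. These distances over 4 libraries are a description.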

How the data were processed

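The deposited table gives TPM per gene for 4 libraries of poly(A) RNA. Per the submitters' processing notes, reads were aligned with minimap2 2.24-r1122 to GRCh38. The gene counter, annotation and use of strand are not given in the sources used here. The length by which the authors' deposited TPM divides reads is not stated. With the genomic span in the table, a gene's reads came out whole, within 0.001 of a read in each library, for 3087 of 13840 genes with a value (22.3%), including 13 of 13 mitochondrial mRNAs. Only TUBB4B among the members is one of them, so no count test was run. For the others the full span gives the most reads possible, if no longer length was used, and the span of the main GENCODE release 29 transcript an estimate. Libraries had 14 PCR cycles and no molecular identifiers are described, so intervals cover counting error only.

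From the TPM, log2(TPM + 1) was fitted for 8274 genes whose mean reached 1 TPM, using limma 3.58.1 in R 4.3.3 (eBayes with trend), with Benjamini-Hochberg adjustment over all 8274 and a threshold of 0.05. Fold changes on this scale understate those of low genes. The contrasts were guides, days and the guide change between days, without a term for the other factor. Alternatives were other pseudocounts (0.1 and 5), filters, scalings, a fit without trend, a replicate block and leaving out each library. All members are named, with the 3 most abundant tested genes of each list and the 5 genes of most similar profile. Members and lists were chosen with earlier results of these data known. Python 3.11.15 and Biopython 1.88 were used for sequences. The matching stretch of the alpha genes is not reported here.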

Additional observations from a re-analysis of the deposited data

How the results depend on the processing

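No member passed the threshold in any of the limma alternatives. Of 133 recomputed guide changes of members 126 kept their direction, as did 125 of 133 day changes. The guide change of TUBB was -0.055 with quantile normalization, -0.0116 with median ratio scaling and -0.0616 with a common sum without mitochondrial genes, and that of TUBB2A was -0.0209 under the last. The day change of TUBB was -0.0607 with quantile normalization and -0.0288 with that common sum. Leaving out 1 library at a time, the guide change ranged from -0.48 to 0.92 for TUBA1A (-0.48 without the day 3 control library), from -0.30 to 0.44 for TUBB2A and from -0.0323 to 0.23 for TUBB2B. The day change then ranged from -0.0855 to 0.50 for TUBA1C, from -0.0075 to 0.022 for TUBB, from -0.0918 to 0.24 for TUBB6 and from -0.15 to 0.47 for TUBG1. Members that kept their sign also moved by over 1.5 times: the guide change ranged from 0.0255 to 0.34 for TUBA1B, 0.16 to 0.58 for TUBG1, 0.20 to 0.55 for TUBB4B and -0.28 to -0.0272 for TUBB6. The day change ranged from 0.0065 to 0.49 for TUBB4B, -1.14 to -0.17 for TUBA1A, 0.0133 to 0.34 for TUBA1B, 0.19 to 0.60 for TUBB2A and -0.28 to -0.11 for TUBB2B. These fits assume that a lone library varies like the others. Members with both SNHG26-guide libraries above both controls numbered 5, against 3 under each of the 3 scalings. Without 1 library, 5 to 7 members had every remaining SNHG26-guide library above every remaining control. Leaving out a library cannot lower this count, so the leave-outs do not test it. The share of all genes was not worked out for them. The scalings and leave-outs for this count were chosen after seeing the data.

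Over all genes, the guide comparison called 0 genes in each alternative but 1. The exception was the replicate block over genes whose mean reached 50 TPM, with 14 calls. The day comparison, with 3 calls, gave 35 under that block and 0 with either pseudocount, no filter, the 50 TPM filter, quantile normalization, the common sum, no trend, the replicate block over all genes or any library left out. The difference between days, with 8 calls, gave 14 with pseudocount 0.1, 13 with the 5 TPM filter, and 0 with pseudocount 5, no filter, the 50 TPM filter, the common sum, no trend, either replicate block or any library left out. The cause of these shifts was not tested. The block pairs libraries by the day number that the arms share. Across 8274 genes, how far the day 3 libraries lay from the mean of their own arm correlated at 0.0464 between arms, and the block changed no member's call. TUBB6 fell under the 50 TPM filter. Read numbers limit TUBA1A and TUBB6 most.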
